A study of Mus musculus with 10 samples.

Results

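The growth hormone, STAT5 and IGF1 axis of the liver was followed through 10 genes, Ghr, Stat5a, Stat5b, Socs2, Cish, Igf1, Igfals, Igfbp3, Bcl6 and Cux2. They were picked by gene symbol, and all 10 are among the 24972 symbols of the table. In T cell-low livers Socs2 rose, Igfals and Stat5a fell, and no difference in Igf1 was detected. These calls depended on single libraries. In the 10 fits with 1 library left out, the call held in 5 for Socs2, 3 for Igfals and 3 for Stat5a.

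The libraries were made from total liver RNA of tumour-bearing mice. The 4 T cell-low libraries came from mice with the pancreatic ductal adenocarcinoma line 6419c1. Mice with the line 6555c3 gave the 6 T cell-high libraries. Both lines derive from the KPC mouse model of pancreatic cancer, and the genotype of every sample is given as WT. Each group rests on 1 tumour line, so a difference between T cell classes and a difference between lines cannot be told apart. The sources used here do not state age or sex, nor that different libraries are different mice. The p-values therefore measure spread among libraries only, and that spread may be technical. Livers without a tumour were not analysed here. The comparison asks how the liver differs between hosts of tumours that hold few or many T cells.

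Growth hormone from the pituitary binds its receptor GHR on hepatocytes, and the attached kinase JAK2 phosphorylates the transcription factors STAT5A and STAT5B. STAT5 dimers bind DNA at palindromic sites and induce Igf1 and Igfals as well as the feedback inhibitors Socs2 and Cish, whose transcripts follow growth hormone pulses closely. In the blood IGF1 is carried in a complex with IGFBP3 and the acid labile subunit, the product of Igfals. The sex-specific rhythm of growth hormone pulses sets the sex bias of many liver genes in mice, and the repressors BCL6, higher in males, and CUX2, found in females, take part in it.

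The promoter windows of the genes that hold a STAT5 recognition word are shown here, because the word is the known link between STAT5 and its targets. Windows of 300 bases, from 250 before the transcription start, were read for 9 of the 10 genes, all but Socs2, from RefSeq sequences of build GRCm38.p6. The word searched was TTCNNNGAA, which reads the same on both strands and overlaps the word that BCL6 recognises. It occurred in 8.3% of all 32851 promoter windows of mouse genes, and in 5 of the 16 windows of these genes, belonging to Bcl6, Cish and Igfals. 1 window of each of these genes follows, 5′ to 3′, with the word in capitals. No match in a window says only that these letters are not in it, and a match is not evidence of binding.
Igfals, chr17:24877981-24878280, plus strand: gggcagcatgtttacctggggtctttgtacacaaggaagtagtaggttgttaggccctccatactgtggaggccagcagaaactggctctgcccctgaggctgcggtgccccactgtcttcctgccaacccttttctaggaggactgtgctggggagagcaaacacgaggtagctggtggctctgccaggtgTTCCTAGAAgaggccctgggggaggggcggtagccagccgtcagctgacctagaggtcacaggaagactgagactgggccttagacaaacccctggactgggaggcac
Cish, chr9:107296409-107296708, plus strand: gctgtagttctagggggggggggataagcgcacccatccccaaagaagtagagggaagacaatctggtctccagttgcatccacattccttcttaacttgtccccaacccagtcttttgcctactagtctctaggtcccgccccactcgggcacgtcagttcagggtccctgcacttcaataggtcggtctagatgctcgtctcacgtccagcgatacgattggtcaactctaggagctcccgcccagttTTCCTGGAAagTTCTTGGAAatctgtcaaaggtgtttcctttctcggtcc
Bcl6, chr16:23981234-23981533, minus strand: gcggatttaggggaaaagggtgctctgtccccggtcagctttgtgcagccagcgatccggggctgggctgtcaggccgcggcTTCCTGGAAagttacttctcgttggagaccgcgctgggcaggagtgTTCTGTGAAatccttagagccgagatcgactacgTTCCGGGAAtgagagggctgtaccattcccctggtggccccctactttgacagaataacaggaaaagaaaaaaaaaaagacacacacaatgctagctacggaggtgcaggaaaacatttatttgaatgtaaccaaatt
In the Igfals window the word TTCCTAGAA begins 58 bases before the start. In the Cish window the words begin at bases 1 and 12 counted from the start as base 1. In the Bcl6 window they begin 168, 122 and 88 bases before it.

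Values are scaled counts, gene counts from the 3′ ends of transcripts that the authors scaled between libraries. Totals per library ran from 7000659 to 8257373 scaled counts and 13370 to 14300 genes were above 0. Depth in reads could not be recovered, so no counting interval is given. Hepatocyte markers were high in every library, with a summed level of 6 markers (Alb, Apoa1, Ttr, Serpina1a, Hnf4a and Cps1) of 368313 to 536543 in T cell-low livers and 240044 to 498856 in livers of the T cell-high group. Genes averaging 10 scaled counts or more were compared by limma on log2(scaled count + 1), which understates the change of low genes. Adjusted p-values are Benjamini-Hochberg values over the 11110 genes tested, called below 0.05, and a log2 fold change is positive where T cell-low livers were higher, given with its standard error (SE). All 10 genes passed the filter, Igfbp3 with a mean of 10.003. The libraries do not all resemble their group. T cell-high 1, 3, 5 and 6 stand apart from the others by Hbb-bs (3465 to 9359 scaled counts in these 4), a globin gene that ran from 118 to 215 in T cell-low livers and from 16.2 to 99.7 in T cell-high 2 and 4, and T cell-low 1 often lay near the T cell-high libraries. Results are therefore also given without them. T cell-low 1 was singled out by its likeness to the T cell-high group, so leaving it out favours larger differences. Lower p-values without it are therefore no support.

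Of the 10 genes, limma called 1 higher (adjusted p below 0.05), where 5.39% of all tested genes were called higher, and 2 lower, where 7.39% were called lower. The other 7 did not pass, and 12.8% of all tested genes were called in either direction. The median log2 fold change of the 10 genes was -0.26, with 5 positive and 5 negative, beside 0.003 over all tested genes. The groups did not overlap for 2 of the 10, Stat5a and Igfals, and 7.39% of all tested genes had no overlap.

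**Figure D1:**
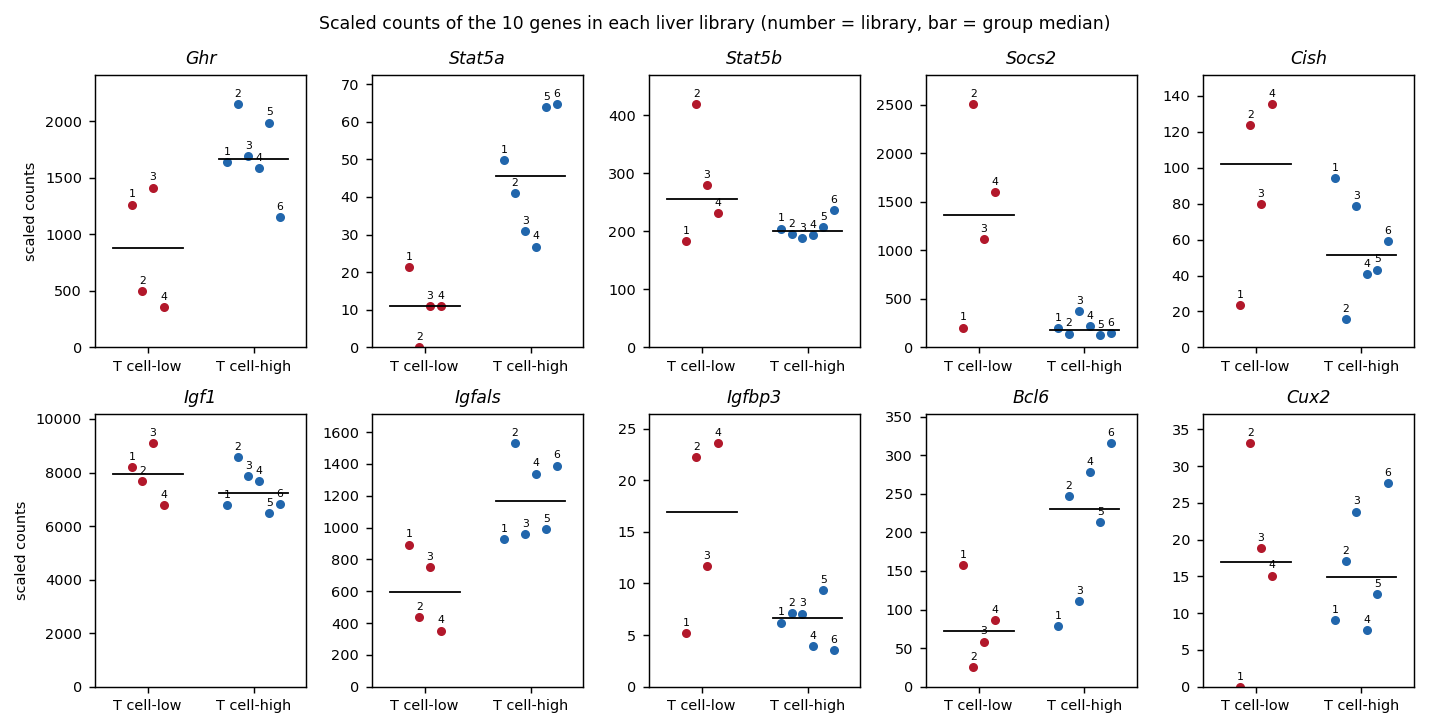
Scaled counts (vertical axes, from 0) of each of the 10 genes in the 4 T cell-low libraries (red, left) and the 6 T cell-high libraries (blue, right), with the library number beside each point and a bar at the group median. Socs2 reaches 1119 to 2508 in T cell-low 2, 3 and 4 against at most 370 in T cell-high livers, and the Igf1 points of both groups lie between 6492 and 9099.

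Ghr, the growth hormone receptor (chromosome 15, 3317760 to 3583492 in mm10, GENCODE vM21), was low in a part of the T cell-low livers. It had 1262, 501, 1412 and 356 scaled counts in T cell-low 1 to 4, against a lowest value of 1152, a median of 1662 and a highest value of 2153 in T cell-high livers. T cell-low 2 and 4 lay below all T cell-high libraries, while T cell-low 1 and 3 lay inside their range. The means were 883 ± 531 (SD, n = 4) in T cell-low livers and 1700.2 ± 348 (SD, n = 6) in livers of the T cell-high group, and the log2 fold change of -1.15 (SE 0.36, limma adjusted p = 0.0505) missed the threshold narrowly. It passed without T cell-low 1 (adjusted p = 0.0113) or T cell-low 3 (adjusted p = 0.0459). It was smaller without T cell-low 2 (-0.96, adjusted p = 0.165) or T cell-low 4 (-0.79, adjusted p = 0.142). In bulk liver RNA, fewer cells of a type and less RNA per cell cannot be told apart.

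Jak2, the kinase bound to the receptor (chromosome 19, 29251828 to 29313080), averaged 94.4 ± 24.3 scaled counts in T cell-low livers and 86.5 ± 11.7 in livers of the T cell-high group (SD, n = 4 and n = 6). Its log2 fold change was 0.09 (SE 0.23, limma adjusted p = 0.796), with a 95% interval of -0.41 to 0.59.

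The STAT5 genes are neighbours on chromosome 11. Stat5a fell and Stat5b did not pass, and the difference between these changes was not tested. Stat5a (100859351 to 100885169) had 21.5, 0, 11.01 and 11.01 scaled counts in T cell-low 1 to 4, and 26.8, 45.4 and 64.8 as the lowest, median and highest value in T cell-high livers. Every T cell-low library lay below every T cell-high library, and T cell-low 2 is listed at 0, which in a table without counts can be a failed estimate. Stat5a fell (log2 fold change -2.57, SE 0.70, limma adjusted p = 0.0365; p = 0.00952 in an exact two-sided permutation test, the smallest that 210 assignments of the libraries allow). The size depends on the pseudocount, with a log2 fold change of -1.49 when 10 was added in place of 1. Leaving out T cell-low 2, the library at 0, gave -1.60 (adjusted p = 0.0669), and the call was also lost without T cell-low 3 or 4 or T cell-high 1, 3, 5 or 6 (adjusted p up to 0.0786). An exon of Stat3 on the other strand lies over the last 400 bases of Stat5a, and the strand setting of the counting is not given, so reads of these genes may be mixed. Stat3 had 825 to 1379 scaled counts in T cell-low livers and 729 to 1948 in livers of the T cell-high group.

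Stat5b, which in mouse liver carries most of the response to growth hormone (100780731 to 100850724), had 183, 419.8, 279 and 231 scaled counts in T cell-low 1 to 4, against 188, 200.2 and 236 as the lowest, median and highest T cell-high values. T cell-low 2 and 3 lay above all T cell-high libraries and T cell-low 1 below them. Means were 278 ± 102 in T cell-low livers and 204 ± 17.2 in livers of the T cell-high group (SD, n = 4 and n = 6), and the log2 fold change of 0.38 (SE 0.23, limma adjusted p = 0.245) did not pass. Its 95% interval ran from -0.11 to 0.87, and that of Stat5a from -4.09 to -1.05.

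Socs2, a feedback inhibitor that sends the receptor for degradation (chromosome 10, 95385362 to 95417180), was the only one of the 10 genes called higher. It had 205, 2508, 1119 and 1601 scaled counts in T cell-low 1 to 4, against 128, 176 and 370.2 as the lowest, median and highest values in T cell-high livers. T cell-low 2, 3 and 4 stood far above every T cell-high library, whereas T cell-low 1 lay among them. The log2 fold change was 2.37 (SE 0.56, limma adjusted p = 0.0236), a 5.17-fold difference with a 95% interval of 2.25 to 11.9. An exact two-sided permutation test gave p = 0.0286. Without T cell-low 1 the log2 fold change was 3.12 (adjusted p = 8.6e-05). The call was lost without T cell-low 2, 3 or 4 or T cell-high 5 or 6, with adjusted p up to 0.0901. Of the words of 50 bases in its last 400 bases, 35.0% occur also in the predicted genes Gm9847 and Gm8000, so reads of copies may be mixed, and neither symbol has a row in the table used here.

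Cish, the other classical early STAT5 target of this group (chromosome 9, 107296026 to 107302784), carries the STAT5 words printed above. It had 23.7, 124, 79.8 and 135 scaled counts in T cell-low 1 to 4, against 15.9, 51.2 and 94.1 as the lowest, median and highest T cell-high values. T cell-low 2 and 4, which were the highest for Socs2 too, lay above all T cell-high libraries, and T cell-low 1 and 3 inside their range. A log2 fold change of 0.63 (SE 0.54, limma adjusted p = 0.413) did not pass, with a 95% interval of -0.52 to 1.79. Socs3, a cytokine-induced member of the same inhibitor family chosen after its value was seen, averaged 42.7 ± 31.6 scaled counts in T cell-low livers and 37.6 ± 30.0 in livers of the T cell-high group (limma adjusted p = 0.890).

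Igf1, the main growth factor released by the liver (chromosome 10, 87858265 to 87937042), had 8198, 7690.4, 9099 and 6779.5 scaled counts in T cell-low 1 to 4, against 6492, 7241 and 8577 as the lowest, median and highest T cell-high values. T cell-low 3 was the highest of all 10 libraries, and the other T cell-low libraries lay inside the T cell-high range. Means were 7942 ± 969 in T cell-low livers and 7369 ± 801 in livers of the T cell-high group (SD, n = 4 and n = 6). The log2 fold change was 0.11 (SE 0.17, limma adjusted p = 0.678), and its 95% interval of -0.26 to 0.47 corresponds to 0.837-fold to 1.39-fold. No difference was detected, and the sign turned when libraries were scaled to the same total (-0.01) or T cell-high 1, 3, 5 and 6 were left out (-0.04).

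Igfals, which encodes the acid labile subunit that holds IGF1 in the circulation (chromosome 17, 24865997 to 24882010), fell. It had 893, 439.6, 750.4 and 352 scaled counts in T cell-low 1 to 4, against 926, 1166 and 1531 as the lowest, median and highest T cell-high values. All 4 T cell-low libraries lay below all 6 T cell-high libraries, T cell-low 1 by a small margin. Means were 609 ± 255 in T cell-low livers and 1189 ± 261 in livers of the T cell-high group (SD, n = 4 and n = 6). The log2 fold change was -1.04 (SE 0.27, limma adjusted p = 0.032; p = 0.00952 in the exact two-sided permutation test, the smallest it can give), 0.488-fold with a 95% interval of 0.324 to 0.734. Without T cell-low 1 it was -1.25 (adjusted p = 0.00413). The call was lost without T cell-low 2 or 4 or T cell-high 1, 3, 4, 5 or 6 (adjusted p up to 0.113).

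Igfbp3, the binding protein of the same complex (chromosome 11, 7206086 to 7213923), had 5.21, 22.2, 11.7 and 23.6 scaled counts in T cell-low 1 to 4, against 3.59, 6.65 and 9.34 as the lowest, median and highest T cell-high values. T cell-low 2, 3 and 4 lay above all T cell-high libraries and T cell-low 1 among them, at levels near the filter throughout. A log2 fold change of 1.07 (SE 0.53, limma adjusted p = 0.169) did not pass. Igfbp3 reached the filter only through the T cell-low libraries, with means of 15.7 there and 6.21 in T cell-high livers, so a call of it in any fit supports nothing. It was 1.48 (adjusted p = 0.0413) without T cell-low 1 and 0.82 (adjusted p = 0.370) without T cell-low 4. In rat liver Igfbp3 is made by endothelial and Kupffer cells rather than by hepatocytes. The summed level of 6 sinusoidal endothelial markers was 2066 to 2253 scaled counts in T cell-low livers and 1811 to 2628 in livers of the T cell-high group, and that of 6 Kupffer cell markers was 3098 to 6722 in T cell-low livers and 2032 to 8081 in livers of the T cell-high group. The endothelial sum joins markers that went opposite ways, of which 4 were chosen after their values were seen. Lyve1 had 158, 844, 716 and 781 scaled counts in T cell-low 1 to 4, against 128 to 196 in T cell-high livers, and Stab2 had 193, 339.7, 350.4 and 367, against 135 to 214. In T cell-low 2, 3 and 4 Kdr lay at 436 to 574, against 837 to 1125 in T cell-high livers, and Clec4g at 220.2 to 340.1, against 448 to 849. No marker of these lists is at 0 in all libraries, and their part in the Igfbp3 values was not tested.

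**Figure D2:**
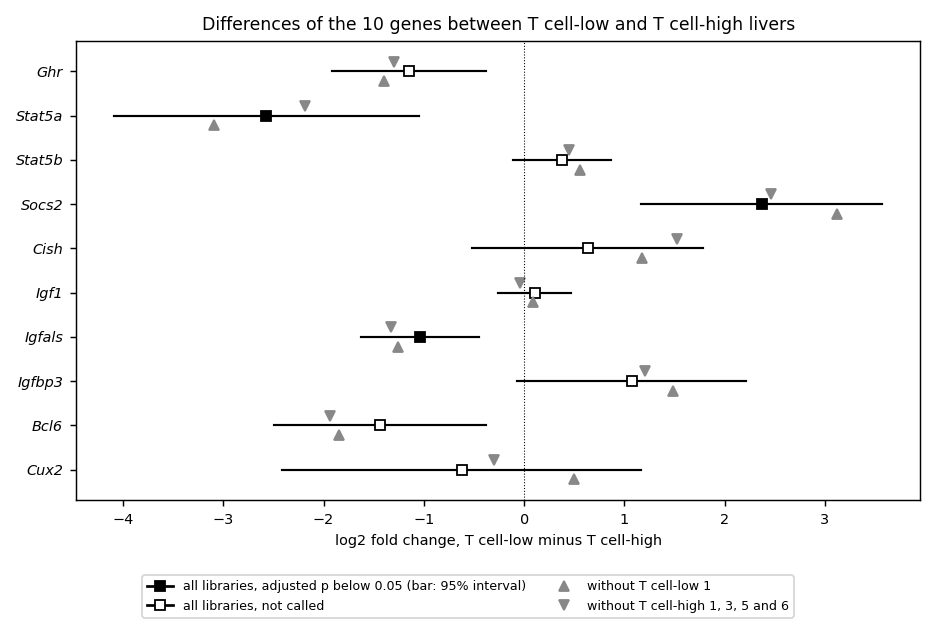
Log2 fold change of each gene (horizontal axis, T cell-low minus T cell-high), with squares and 95% intervals for all libraries, filled where the adjusted p is below 0.05, and grey triangles for the fits without T cell-low 1 or without T cell-high 1, 3, 5 and 6. Socs2 lies at 2.37, Igfals at -1.04 and Stat5a at -2.57, and Igf1 is next to 0 in all 3 fits.

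Bcl6, the repressor that competes with STAT5 for its sites (chromosome 16, 23965052 to 23988852), had 158, 25.8, 58.5 and 86.5 scaled counts in T cell-low 1 to 4, against 78.1, 230.3 and 316 as the lowest, median and highest T cell-high values. T cell-low 2 and 3 lay below all T cell-high libraries, and T cell-high 1 and 3 lay inside the T cell-low range. Means were 82.2 ± 56.2 in T cell-low livers and 207 ± 94.2 in livers of the T cell-high group (SD, n = 4 and n = 6). The log2 fold change of -1.44 (SE 0.49, limma adjusted p = 0.0659) did not pass, and it was -1.84 (adjusted p = 0.0118) without T cell-low 1 and -0.99 (adjusted p = 0.215) without T cell-low 2. Bcl6 is also expressed in germinal centre B cells. The 4 B cell markers summed to 16.6 to 85.1 scaled counts in T cell-low livers and 12.8 to 33.5 in livers of the T cell-high group, 2 of the 4 having a mean of at least 10, and their part was not tested.

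Cux2, a repressor of male-biased genes in female mouse liver (chromosome 5, 121856366 to 122050102), had 0, 33.1, 18.9 and 15.1 scaled counts in T cell-low 1 to 4, against 7.76, 14.9 and 27.7 as the lowest, median and highest T cell-high values. The groups overlapped, and T cell-low 1 is listed at 0. The log2 fold change was -0.62 (SE 0.83, limma adjusted p = 0.616), and it turned to 0.49 (adjusted p = 0.453) without T cell-low 1, so no direction can be given. Xist, the transcript of the inactive X chromosome, which female cells carry, had 866 to 2097 scaled counts over all 10 libraries. Each library thus holds RNA of female cells, while the sex of the mice is not stated.

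The T cell-low libraries differed in how many of the 10 genes lay outside the T cell-high range. T cell-low 2 lay outside that range for 9 of the 10 genes, all but Igf1. T cell-low 3 did so for 7, and T cell-low 4 for 6. T cell-low 1 did so for 4, Stat5a, Stat5b, Igfals and Cux2, and lay inside for Ghr, Socs2, Cish, Igf1, Igfbp3 and Bcl6. The same count over all tested genes was not made, so these counts may describe the libraries as a whole and not these genes. Without T cell-low 1, limma called 2 of the 10 genes higher, where 15.4% of all tested genes were called higher, and 4 lower, where 17.2% were called lower. The added ones were Ghr, Bcl6 and Igfbp3. None counts as support, because T cell-low 1 was singled out by its values, and Igfbp3 also because of how it passed the filter.

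Without T cell-low 2, limma called 0 of the 10 genes, where 0.972% of all genes were called. At an unadjusted p below 0.05 there were 4 of the 10, beside 2612 of the 11110 genes tested. It also called 0 of the 10 without T cell-low 4, T cell-high 5 or T cell-high 6, with 1.4%, 3.33% and 4.02% of all genes called. At an unadjusted p below 0.05 each of these fits had 5 of the 10, beside 3062, 3146 and 3236 of the 11110 genes. Without T cell-high 1, 3, 5 and 6, which leaves 2 T cell-high libraries, 0 of the 10 and 0 of all genes passed (4 of the 10, and 999 or 8.99% of all genes, at an unadjusted p below 0.05). Log2 fold changes were then 2.46 for Socs2, -1.33 for Igfals, -2.18 for Stat5a and -0.04 for Igf1. Without T cell-high 2 and 4, where 23.4% of all genes were called, Socs2 (2.33, adjusted p = 0.0292) and Stat5a (-2.76, adjusted p = 0.036) passed and Igfals (-0.89, adjusted p = 0.0537) did not.

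**Figure D3:**
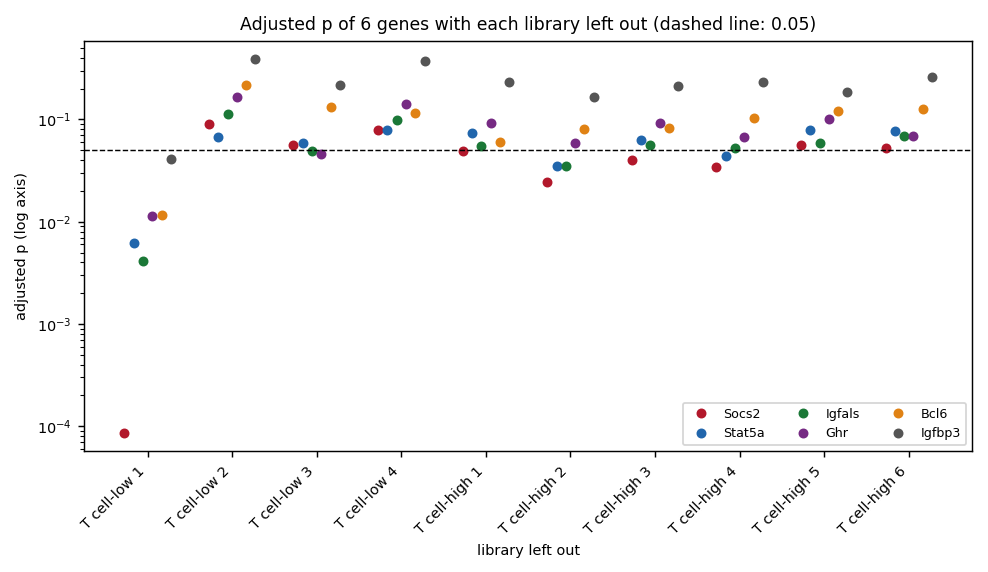
Adjusted p (vertical log axis) of 6 of the genes when the library on the horizontal axis was left out, with a dashed line at 0.05. The 6 shown are the genes called without T cell-low 1, a library singled out by its values. That all 6 lie below the line there thus follows from their choice. Stat5b, Cish, Cux2 and Igf1, not shown, lay above it in that fit. Socs2 lies there at 8.6e-05, and none of the 6 lies below the line without T cell-low 2.

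Neutrophil markers differed between the groups without overlap, and erythroid markers overlapped. The 6 neutrophil markers summed to 629 to 1717 scaled counts in T cell-low livers and 39.8 to 211 in livers of the T cell-high group, with 4 of the 6 at a mean of at least 10. The 5 erythroid markers summed to 43059 to 98086 in T cell-low livers and 19679 to 51907 in livers of the T cell-high group. The 5 T cell markers, of which 1 had a mean of at least 10, summed to 8.94 to 39.4 for T cell-low and 14.3 to 34.0 for T cell-high libraries. Stellate cell markers summed to 3385 to 5650 for T cell-low and 2810 to 4331 for T cell-high libraries. The 5 bile duct markers, of which 3 had a mean of at least 10, summed to 152 to 447 for T cell-low and 107 to 233 for T cell-high libraries. Most of that sum is Sox9, with its highest value, 401, in T cell-low 1. No marker of these lists is at 0 in all libraries, and their part in the differences of the axis was not tested.

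Of 24 listed genes of growth hormone receptor signalling 23 were tested, and limma called 2 higher and 2 lower, beside 12.8% called in either direction among all genes, with a list median log2 fold change of 0.10. Socs2 and Stat5a were among them, and so was Ptpn2, which was higher. Ptpn2 encodes a phosphatase that acts on JAK and STAT proteins and had 467 ± 278 scaled counts for T cell-low livers against 166 ± 66.6 in T cell-high livers (a log2 difference of 1.37, SE 0.38, adjusted p = 0.0365). In T cell-low 1 Ptpn2 lay inside the T cell-high range, at 199.9 scaled counts.

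Of 18 genes of IGF ligands, receptors and binding proteins 13 were tested, and Igfals was the only one that limma called, beside 12.8% of all genes, in a list with a median log2 fold change of 0.24. Igfbp1, a binding protein that rises on fasting, had 4732, 59562, 8755 and 88263 scaled counts in T cell-low 1 to 4, against 1567, 6294 and 10212 as the lowest, median and highest T cell-high values. T cell-low 2 and 4, the libraries with the least Ghr and Igfals, stood far above the rest, and the log2 fold change of 2.04 (SE 0.75, adjusted p = 0.0834) did not pass. Igfbp2, also a fasting-responsive binder, averaged 1117 ± 478 in T cell-low livers and 609.5 ± 348 in livers of the T cell-high group (0.97, SE 0.39, adjusted p = 0.105). Igf1r, the IGF1 receptor, had 72.0 ± 22.7 against 40.8 ± 11.8 (0.79, SE 0.30, adjusted p = 0.091). Both missed the threshold.

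Transcription factors that work with STAT5 in the liver gave 1 of 15 called higher, Onecut1, and 1 called lower, Stat5a, with a median log2 fold change of -0.01. That count is near the background of 5.39% called higher and 7.39% called lower among all genes. Onecut1, a hepatocyte factor that growth hormone induces in rat liver, had 158, 245, 237 and 345 scaled counts in T cell-low 1 to 4, against 54.8, 92.3 and 124 as the lowest, median and highest T cell-high values. All T cell-low libraries, T cell-low 1 among them, lay above all T cell-high libraries (log2 fold change 1.41, SE 0.29, limma adjusted p = 0.0169). Prlr, the prolactin receptor, which also signals through STAT5, averaged 2063 ± 556 in T cell-low livers and 2743 ± 1063 in livers of the T cell-high group (-0.36, SE 0.28, adjusted p = 0.374).

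Genes whose sex bias depends on growth hormone were called more often. Of 26 listed female-biased genes 25 were tested, and 12 fell and 0 rose, beside 7.39% called lower among all genes, and the list median was -2.003. Cyp3a16 and Hao2, 2 of the 12, have means of 10.02 and 10.5 over all libraries and reached the filter only through the T cell-high libraries. With a filter at a mean of 50, 22 were tested and 10 fell, with a median of -1.47. Of 21 listed male-biased genes 16 were tested, and 7 fell and 2 rose, beside 5.39% called higher among all genes, with a median of -1.41. Cyp4a12a, Cyp4a12b, Hsd3b5, Ugt2b38 and Moxd1 of that list lay below the filter. With Xist present in every library, the male-biased list was read in RNA that holds that of female cells. The female-biased Cyp2c40, Cyp2a4, Cyp3a41a and Cyp2c69, cytochromes P450, had log2 fold changes of -2.36, -3.79, -2.42 and -2.37, and their groups did not overlap. Their 3′ ends are shared with other P450 genes and their reads may be mixed. Cyp2c40 and Cyp2c69 share words with each other, and Cyp3a41a with Cyp3a44, which also fell. The 12 may therefore not be 12 separate signals. For the other called genes of this list 3′ ends were not compared.

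Among the male-biased genes Mup3, a major urinary protein of the urine scent system, had 2456, 363, 176 and 636 scaled counts in T cell-low 1 to 4, against 4491, 7433 and 9111 as the lowest, median and highest T cell-high values. Selenbp2, a selenium-binding protein, had a log2 fold change of -3.31 and Mup1 one of -3.51, and each shares its 3′ end with a close relative. For Mup1 these include Mup7, which is also among the male-biased genes that fell. Cyp2d9, a male-biased P450 that also shares its 3′ end, rose (1.46, SE 0.43, adjusted p = 0.0448). Serpina1e, an alpha-1 antitrypsin paralogue of male mice, had 30767 ± 20160.4 scaled counts for T cell-low livers against 1756 ± 708 in T cell-high livers and also rose (3.90, SE 0.48, adjusted p = 0.00331).

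**Figure D4:**
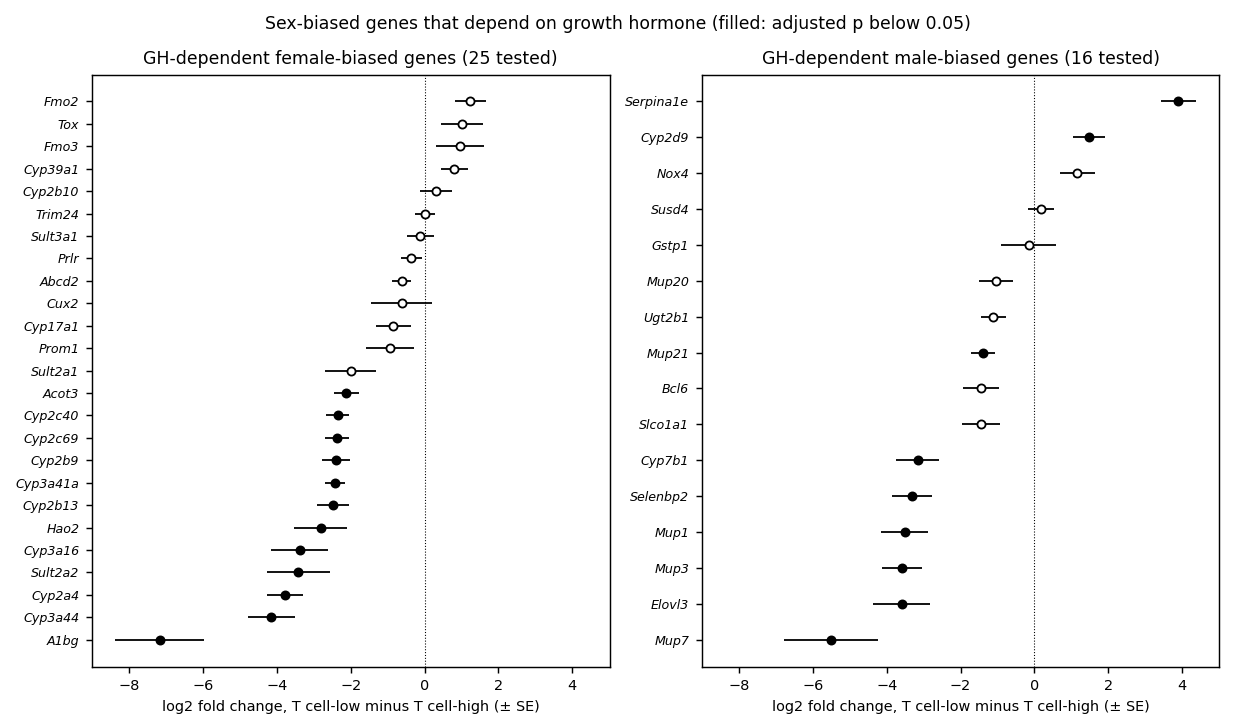
Log2 fold change with SE (horizontal axis, T cell-low minus T cell-high) of the tested female-biased (left panel) and male-biased (right panel) genes that depend on growth hormone, filled where the adjusted p is below 0.05. On the left the 12 filled points are all negative, and on the right 7 are negative and 2, Serpina1e and Cyp2d9, positive.

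Of the T cell-low libraries, T cell-low 1 lay closest to the T cell-high livers in both lists. The median distance, in log2 units, to the mean of the T cell-high libraries over the female-biased genes was -1.003 in T cell-low 1, while T cell-low 2, 3 and 4 lay at -2.31 to -1.35, against -0.15 to 0.21 in T cell-high livers. Over the male-biased genes it was -0.47 in T cell-low 1 and -1.84 to -1.15 in the other T cell-low libraries, against -0.48 to 0.41 in T cell-high livers. Without T cell-low 1 the called genes were 4 higher and 14 lower in the female-biased list and 3 higher and 11 lower in the male-biased list. Among all genes 15.4% were then called higher and 17.2% lower. Without T cell-low 2 they were 0 higher and 9 lower, and 1 higher and 2 lower, beside 0.972% of all genes called in either direction. Without T cell-high 1, 3, 5 and 6 limma called 0 in either list and 0 of all genes. At an unadjusted p below 0.05 there were 12 female-biased and 11 male-biased genes, beside 8.99% of all genes.

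Of 9 genes known to rise in mouse livers that lack GHR, JAK2 or STAT5, 7 were tested and limma called 1 higher and 0 lower, beside 5.39% called higher among all genes, with a median of 0.90. The called gene was Lpl, lipoprotein lipase, with 764 ± 530.0 scaled counts for T cell-low livers against 219 ± 53.4 in T cell-high livers (1.62, SE 0.33, adjusted p = 0.0169) and no overlap between the groups. The list did not move as one. Vldlr, named after its value was seen, went the other way (-1.29, SE 0.46, limma adjusted p = 0.0747) and did not pass. With a filter at a mean of 50, 3 of the list were tested and 1 was called higher.

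Genes closest in profile were found as those with the smallest mean absolute difference of centred log2 values over the 10 libraries. For Igf1 they were Ccpg1, Cul5 and Bnip2, at 0.058 to 0.069. For Igfals they were Adh1, Ifitm3 and Glo1, at 0.123 to 0.127. For Socs2 they were Rassf1, Il1r1 and Chic2, at 0.328 to 0.396. Il1r1, the interleukin 1 receptor, had 439.5, 4442, 1412 and 2484 scaled counts in T cell-low 1 to 4, against 183, 343 and 447 as the lowest, median and highest T cell-high values. Il1r1 was picked for its likeness to Socs2 in these libraries, so a shared order of T cell-low libraries is no evidence of a link. Chic2, picked in the same way, was highest in T cell-low 4 (1558) and not in T cell-low 2 (1450). Adh1, an alcohol dehydrogenase, had 42479, 14927, 27048 and 13974 in T cell-low 1 to 4, against 40300.1, 48684 and 62290.2 in T cell-high livers.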

How the data were processed

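The authors deposited 1 table of scaled gene counts, a signal per gene and library, from 3′ end libraries (QuantSeq FWD) of total liver RNA, per the labels. The build mm10 and the tools STAR and DESeq2 are listed, per the submitters' processing notes, without versions; the sources used here do not name the counter, its strand setting or the annotation. The values are not whole, and 4.88% to 6.90% of those above 0 lie within 0.01 of a whole multiple of the most frequent low value, so whole reads were not recovered. The design named a count test for whole counts and limma for scaled values, and limma applied.

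Groups and replicate numbers came from the sample titles. Genes with a mean of at least 10 over the 10 libraries were compared on log2(value + 1) with limma 3.58.1 (R 4.3.3), with a variance trend and group as the only term, 13.1 degrees of freedom and Benjamini-Hochberg adjustment. The test was checked on simulated data. Single genes were also compared by exact permutation over libraries (scipy 1.17.1). Positions and 3′ ends are from GENCODE vM21, of the same assembly as mm10. A 3′ end was taken as shared where at least 20% of its 50-base words in the last 400 bases occur in another gene. Figures used matplotlib 3.10.9.

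The 10 genes and all lists were chosen with earlier results of these data known, so no list is independent evidence. Named genes are the 10, of each list up to 4 called genes of lowest adjusted p and up to 2 of the other direction, 6 further genes (Jak2, Igfbp1, Igfbp2, Igf1r, Prlr and Onecut1), and the 3 nearest profiles of Igf1, Igfals and Socs2; 1 gene that the rule names is not reported here. Alternatives covered the filter, the pseudocount, rescaling, the robust option, library weights, a replicate block, the threshold and libraries left out.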

Additional observations from a re-analysis of the deposited data

How the results depend on the processing

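Socs2 and Igfals kept their direction under every alternative that was run, and Stat5a under all but the filter at a mean of 50, which removed it. The count of called genes among the 10, 3 with all libraries, was 0 to 6 with 1 library left out, 0 without T cell-high 1, 3, 5 and 6, and 5 at a threshold of 0.10. Over all genes, 1420 with all libraries, it was 108 to 3622 with 1 library left out, 3266 with library weights, 2871 at a threshold of 0.10, 2605 when T cell-high 2 and 4 were left out and 0 without T cell-high 1, 3, 5 and 6. Over the distinct genes of the lists, 28 with all libraries, it was 13 to 51 with 1 library left out and 0 without T cell-high 1, 3, 5 and 6. The cause of these changes was not tested.

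A fit with the replicate number as a block (replicate block) called 193 genes, 0 of the 10 and 15 of the list genes. At an unadjusted p below 0.05 it had 4 of the 10, beside 2682 of the 11110 genes tested. The titles do not say whether the numbers pair the libraries. Deviations of same-numbered libraries correlated at 0.10, 0.21, -0.10 and -0.15, and 1 of 4 T cell-low libraries correlated best with its own number. So few correlations cannot exclude a pairing.

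Scaling to the same total shifted the median of all genes to -0.11 and the share of calls that were higher to 28.3%, against 42.2% as deposited, and added Ghr to the called genes (adjusted p = 0.0425). Uncalled genes near 0 changed sign: under that scaling the log2 fold change of Igf1 was -0.013, the log2 fold change of Jak2 was -0.025 and the log2 fold change of Ccpg1 was -0.028. Without T cell-high 1, 3, 5 and 6 they were -0.039 for Igf1 and -0.061 for Ccpg1, and the log2 fold change of Cul5 was -0.037. With 1 library left out the log2 fold change of Cux2 ran from -1.20 to 0.49, and that of Jak2 from -0.023 (without T cell-low 3) to 0.28. Ghr also passed with a pseudocount of 10, a filter at a mean of 50 or library weights, and Stat5a was lost with no filter, and the cause was not tested.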

Other observations

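Genes that control release of IGF1 from its binding proteins were below the filter and were chosen after their values were seen. Stc1, a stanniocalcin that inhibits the pappalysin proteases, had 0, 3.88, 27.8 and 4.84 scaled counts in T cell-low 1 to 4 and is listed at 0 in all 6 T cell-high libraries. Pappa, a pappalysin that cleaves IGF binding proteins, had 1.75, 5.23, 13.8 and 7.39 in T cell-low 1 to 4, against 0 to 5.81 in T cell-high livers. Both were highest in T cell-low 3, and no test was made at these levels.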
